A study of Mus musculus with 6 samples.

Results

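The genes described here build the route by which a newly made protein enters the endoplasmic reticulum (ER) and travels to and from the Golgi. They were chosen by gene name alone: Sec61, Sec62 and Sec63 of the translocon, Ssr1 to Ssr4, the signal peptidase genes Sec11 and Spcs, the coat genes Sec13, Sec16, Sec23, Sec24 and Sec31, the Sec22 genes, the Tmed genes, the KDEL receptors Kdelr1 to Kdelr3, and the COPI coat genes Copa, Copb, Cope, Copg and Copz. Of 25361 genes in the table, 52 matched, 44 of them had enough counts to be tested, and 2 had no count in any library. By role they fall into the translocon channel (6 genes), the translocon-associated complex (4), signal peptidase (5), the COPII coat (12), Sec22 (3), p24 proteins (11), KDEL receptors (3) and the COPI coat (8).

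The study profiled hearts of 12-week-old male C57BL/6N mice, labelled wild type, 3 of them given ISO+L-NAME and 3 untreated controls, collected after 6 weeks. The series title names the treatment as a model of HFpEF, heart failure with preserved ejection fraction. L-NAME inhibits nitric oxide synthase. The labels say neither which part of the heart was taken nor how the agents were given. Messenger RNA was read from its 3′ end, so a count stands for 1 sequenced message end and does not grow with message length. The comparison asks which of these messages differ between treated and untreated hearts.

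As background, a secreted or membrane protein is threaded through the Sec61 channel, loses its signal peptide to signal peptidase, and folds in the ER lumen with the help of chaperones. COPII coats then bud vesicles that carry it forward, p24 proteins (the Tmed genes) help to sort cargo into them, and COPI coats with KDEL receptors bring escaped ER residents back. In the heart, fibroblasts use this route for collagen and other matrix, and cardiomyocytes use it for channels, receptors and secreted peptides.

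ISO+L-NAME libraries held 2637364, 2354157 and 2374361 counts and control libraries 2448484, 2347139 and 2217974. Levels are given in CPM, counts scaled to a common library total, here on library sizes adjusted by TMM, a scaling that sets the bulk of genes equal between libraries. One count was worth 0.332 to 0.393 CPM in treated and 0.456 to 0.500 CPM in control libraries. The mitochondrial genome gave 46.8% ± 1.21 of counts in treated and 55.1% ± 1.53 in control hearts (SD, n = 3 each). Cardiomyocyte markers were the most abundant cell type list, at 57806 to 62115 summed CPM in treated and 64791 to 67171 in control hearts.

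Promoters are shown for the 3 members with the smallest p-values and for Kdelr3, the tested member with the largest positive difference. The promoter of Hspa5 is shown too, an ER chaperone gene that is the textbook target of the ER stress response and was lower here on TMM. Each runs from 250 bases before to 50 after the start site, 5′ to 3′ on the gene's strand, from RefSeq on GRCm38.p6, a build other than the GRCm39 of the counts. Capitals mark CCACG and CCAAT on either strand, and TGACGTGG, a form of the unfolded protein response element (UPRE) bound by XBP1, which contains a CCACG on its other strand. The regions are chr10:42761246-42761545 (+) for Sec63, chr11:6274788-6275087 (-) for Tmed4, chr13:55592885-55593184 (+) for Tmed9, chr15:79516158-79516457 (+) for Kdelr3 and chr2:34771840-34772139 (+) for Hspa5.
Sec63: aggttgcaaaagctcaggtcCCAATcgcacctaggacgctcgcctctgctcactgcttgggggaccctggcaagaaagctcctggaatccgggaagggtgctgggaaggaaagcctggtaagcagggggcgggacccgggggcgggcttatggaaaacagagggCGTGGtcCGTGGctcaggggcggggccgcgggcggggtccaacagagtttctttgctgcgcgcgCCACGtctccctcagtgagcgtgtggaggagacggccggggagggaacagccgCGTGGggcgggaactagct
Tmed4: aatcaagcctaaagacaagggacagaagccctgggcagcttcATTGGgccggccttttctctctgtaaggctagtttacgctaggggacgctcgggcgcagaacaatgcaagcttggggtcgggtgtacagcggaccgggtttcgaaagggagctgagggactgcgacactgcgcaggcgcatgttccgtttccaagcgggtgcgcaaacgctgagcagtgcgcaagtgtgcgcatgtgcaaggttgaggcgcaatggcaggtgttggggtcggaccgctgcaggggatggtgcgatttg
Tmed9: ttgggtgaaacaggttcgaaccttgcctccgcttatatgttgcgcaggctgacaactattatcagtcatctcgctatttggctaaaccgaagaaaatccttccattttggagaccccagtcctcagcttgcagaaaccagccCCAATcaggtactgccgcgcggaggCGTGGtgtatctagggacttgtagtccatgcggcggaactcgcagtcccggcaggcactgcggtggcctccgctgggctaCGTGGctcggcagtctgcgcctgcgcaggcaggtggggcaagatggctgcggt
Kdelr3: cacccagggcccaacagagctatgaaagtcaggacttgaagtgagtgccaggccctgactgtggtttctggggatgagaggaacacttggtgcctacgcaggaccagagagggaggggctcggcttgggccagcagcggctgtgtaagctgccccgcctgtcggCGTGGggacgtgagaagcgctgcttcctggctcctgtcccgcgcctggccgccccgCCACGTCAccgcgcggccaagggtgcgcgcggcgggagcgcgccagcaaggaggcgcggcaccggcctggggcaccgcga
Hspa5: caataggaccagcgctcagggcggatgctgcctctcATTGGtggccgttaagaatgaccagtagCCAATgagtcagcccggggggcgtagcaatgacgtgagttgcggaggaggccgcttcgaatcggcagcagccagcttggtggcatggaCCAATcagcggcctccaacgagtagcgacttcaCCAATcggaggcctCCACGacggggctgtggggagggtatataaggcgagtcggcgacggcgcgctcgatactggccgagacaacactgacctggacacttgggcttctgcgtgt

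Promoters were on hand for 44 members, 48 windows in all. The full ER stress element (ERSE), CCAAT followed after 9 bases by CCACG, was in the Hspa5 window and in 0 of the 48 member windows, against 0.119% of all 32851 promoters and 0.136% of those of tested genes. With an element this rare, 0 of 48 windows does not set the members apart from other genes. The UPRE letters stood in 6 member windows (12.5%), against 0.676% of all promoters and 0.963% of the promoters of tested genes. Those 6 belong to Kdelr3, Sec23a, Sec24d, Sec16b, Copb1 and Copb2. CCACG alone stood in 34 of the 48 (70.8%), against 32.8% of all promoters and 47.2% of those of tested genes, and CCAAT alone in 19 (39.6%), against 37.4% and 36.6%. Median GC content was 59.2% in member windows, 61.3% in those of tested genes and 52.7% over all promoters. These are matches of letters. Of the 5 UPRE-bearing members that could be tested, none passed the threshold below, and log2 differences were positive for Kdelr3, Sec23a and Sec24d and negative for Copb1 and Copb2.

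On TMM scaling the secretory machinery as a whole differed little between treated and control hearts. Sec63 was the single member of 44 to pass the edgeR quasi-likelihood test at a Benjamini-Hochberg adjusted p of 0.05 over all 8531 tested genes, and it rose. That is 2.27% of the tested members, below the 6.10% of all tested genes that passed; by direction, 3.41% of all genes were called higher and 2.68% lower, while 0 members were called lower by edgeR, DESeq2 or limma-voom. At an unadjusted p of 0.05, 4 members (9.09%) were higher, against 9.33% of all genes, and 0 were lower, against 8.78%. On TMM the share of members called is thus near or under the background. With total counts alone it was above it, at 34.1% called higher against 16.5% of all genes. On counts simulated over all tested genes 29.9% of true 1.5-fold changes were called, so small differences can be missed. The share for the members alone was not simulated.

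Small positive differences were nonetheless more common than negative ones. Of the 44 tested members, 31 (70.5%) had a positive log2 difference, against 49.1% of all tested genes. The median of the 44 was 0.09, against -0.01 over all genes. Between replicates of a group, the median level of the members in a library varied with an SD of 0.115 on the log2 scale. That is a spread of single libraries and not the error of the 0.09, which was not estimated. All members are read in the same 6 libraries, so their signs are not independent, and no test was made of them. Values of the treated and control groups did not overlap for 8 members with the higher values in treated hearts (18.2%, against 11.4% of all genes) and for 4 with the lower values there (9.09%, against 11.3%). The 95% interval of the difference lay inside 2-fold either way for 41 of the 44 (93.2%, against 78.4% of all genes), the exceptions being Sec23b, Sec22a and Kdelr3, which had few counts. Members passed the count filter partly by their level, so these shares describe the 44 and not all 52.

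The scaling matters for how these figures read. With total counts alone, the median of all genes lay 0.30 higher on the log2 scale than with TMM, and 15 members (34.1%) were called higher and 0 lower, against 16.5% and 0.844% of all genes. Those 15 were Sec61a1, Sec62, Sec63, Ssr3, Spcs2, Sec13, Sec23a, Sec23ip, Sec31a, Tmed4, Tmed9, Tmed10, Kdelr1, Kdelr2 and Copz1. The median of the members less the median of all genes was 0.09 on TMM and 0.10 on total counts, values that a change of scaling leaves nearly alike by construction. All members together took 0.156% ± 0.00849 of counts in treated and 0.116% ± 0.00172 in control hearts, and 0.293% ± 0.0139 and 0.259% ± 0.0114 of the counts left once mitochondrial messages were set aside (SD, n = 3 each). Neither pair of groups overlapped. On TMM their summed level was 1395, 1352 and 1493 CPM in treated and 1315, 1367 and 1220 CPM in control hearts, which do overlap.

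**Figure D1:**
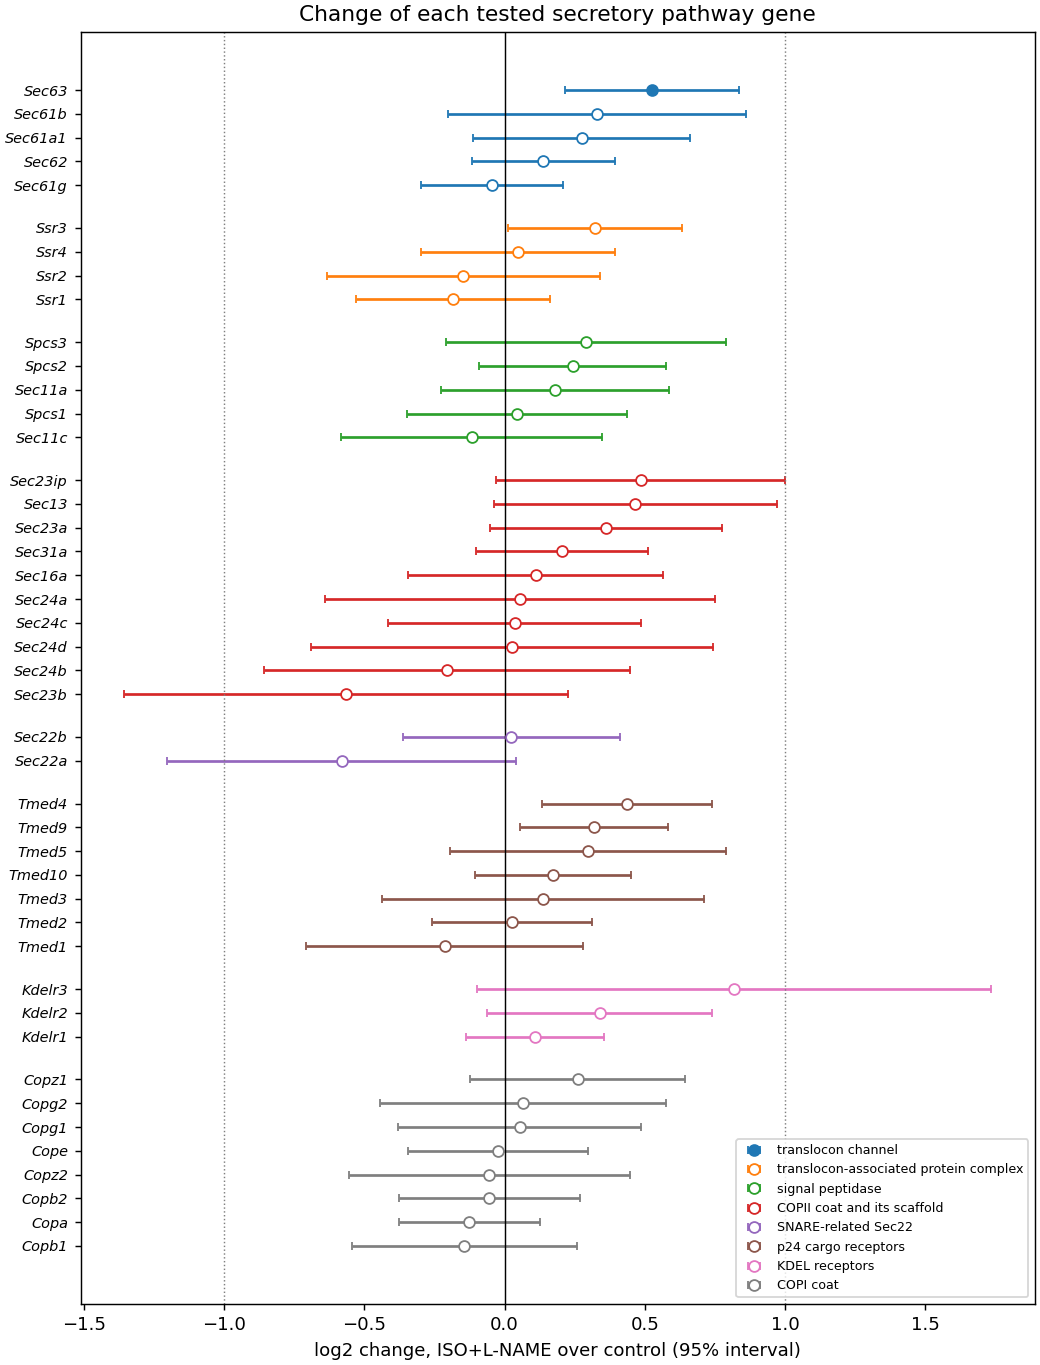
Log2 change of ISO+L-NAME over control for the 44 tested secretory pathway genes, with 95% intervals (horizontal bars), grouped and coloured by role; the filled point passed an adjusted p of 0.05 and dotted lines mark 2-fold. Sec63 is the single filled point, and 41 of the intervals lie between the dotted lines.

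The translocon channel held the one call. Sec63 encodes a J-domain protein of the ER membrane that brings the chaperone BiP (Hspa5) to the channel (ENSMUSG00000019802, chromosome 10, 42637492 to 42708510, GRCm39). Its counts were 143, 117 and 121 in treated hearts, against 82, 64 and 58 in control hearts. In CPM these were 47.5, 46.0 and 47.0 in treated and 37.4, 32.0 and 27.9 in control hearts. Every treated heart was above every control heart, and the treated values lay close together while the controls were spread. The rise was 1.44-fold (log2 0.53 ± 0.15 SE, 95% interval 0.22 to 0.84, edgeR adjusted p = 0.0380). The call was lost with DESeq2 (adjusted p = 0.154) and without control 2, control 3 or any 1 treated library (edgeR adjusted p from 0.0853 to 0.143), while the log2 value stayed between 0.42 and 0.64.

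The partners of Sec63 in the channel did not pass. Sec62, which acts with Sec63 on short and slow signal peptides, had 103, 89.6 and 92.0 CPM in treated and 89.9, 75.6 and 92.9 CPM in control hearts, with overlap (log2 0.14 ± 0.12, edgeR adjusted p = 0.632). The pore subunit Sec61a1 averaged 32.4 ± 5.94 CPM in treated and 26.9 ± 5.27 in control hearts (SD, n = 3 each; log2 0.27 ± 0.19). The small tail-anchored subunit Sec61b differed by 0.33 ± 0.26. The other small subunit, Sec61g, was the most abundant member of all, at 122, 109 and 123 CPM in treated and 127, 134 and 104 CPM in control hearts, with overlap. Its log2 difference was -0.04 ± 0.12, and the upper end of its 95% interval, 0.21, lies below the value of Sec63.

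The level of Sec61a2, a second pore gene, was too low for the test, at 5, 4 and 6 counts in treated and 8, 6 and 10 in control hearts. Its groups did not overlap, and an unfiltered fit gave log2 -1.03 ± 0.52 (edgeR adjusted p = 0.345). Sec61a1 therefore made up 95.5%, 94.2% and 93.9% of the counts of both pore genes in treated and 86.7%, 91.7% and 83.3% in control hearts.

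The translocon-associated protein complex sits beside the channel and helps some signal peptides to enter. Its gamma subunit gene Ssr3 (ENSMUSG00000027828) had 36.9, 40.1 and 43.1 CPM in treated and 30.1, 34.0 and 31.8 CPM in control hearts, without overlap. It missed the threshold after adjustment (log2 0.32 ± 0.15, unadjusted p = 0.0426, edgeR adjusted p = 0.253). The alpha subunit gene Ssr1 lay the other way, at 27.9, 28.7 and 22.9 CPM in treated and 30.1, 29.0 and 31.3 CPM in control hearts, also without overlap (log2 -0.18 ± 0.17, edgeR adjusted p = 0.641). The beta and delta subunit genes Ssr2 and Ssr4 differed by -0.15 ± 0.23 and 0.05 ± 0.17. The 4 subunits of this complex thus showed differences of both signs, with a median of -0.05.

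Signal peptidase cuts the signal peptide off as the chain enters the lumen. All 5 of its genes were tested and 0 were called by edgeR, with 0 at an unadjusted p of 0.05; differences ran from -0.12 ± 0.22 for the catalytic subunit gene Sec11c to 0.29 ± 0.24 for the accessory subunit gene Spcs3. The most abundant, Spcs1, averaged 42.4 ± 9.38 CPM in treated and 41.2 ± 11.6 in control hearts (SD, n = 3 each). The other catalytic subunit gene, Sec11a, had 18.6, 18.5 and 21.0 CPM in treated and 17.8, 16.5 and 16.8 CPM in control hearts, without overlap but with a log2 difference of 0.18 ± 0.19. Spcs2 differed by 0.24 ± 0.16.

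**Figure D2:**
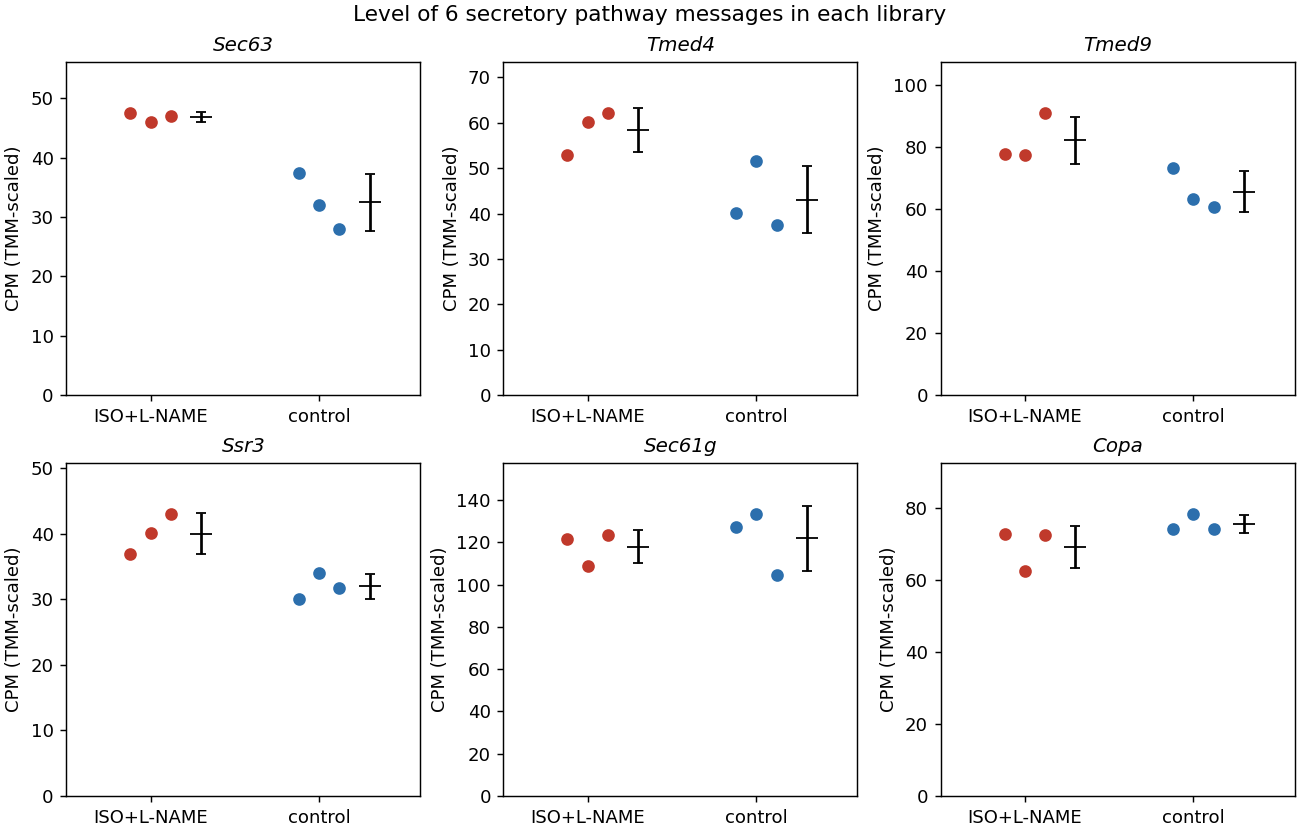
Level in CPM on TMM-scaled library sizes for Sec63, Tmed4, Tmed9, Ssr3, Sec61g and Copa in the 3 ISO+L-NAME and the 3 control libraries (points), with mean and SD beside them (bars); axes start at 0. Treated libraries lie above controls for Sec63, Tmed4, Tmed9 and Ssr3, below them for Copa, and among them for Sec61g.

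COPII is the coat of vesicles that leave the ER. Of its 12 genes, counting the scaffolds Sec16a and Sec16b and the Sec23-binding Sec23ip, 10 were tested and 0 were called, with 0 at an unadjusted p of 0.05 by edgeR. The most abundant was Sec31a of the outer cage, with 40.5, 47.2 and 54.7 CPM in treated and 39.2, 41.0 and 42.8 CPM in control hearts, with overlap (log2 0.21 ± 0.15, edgeR adjusted p = 0.528). Sec13, its cage partner and also a nuclear pore protein, averaged 22.4 ± 2.14 CPM in treated and 16.2 ± 7.10 in control hearts, the controls running from 10.1 to 24.02 (SD, n = 3 each; log2 0.47 ± 0.24). Sec23ip had the largest positive difference in the coat, with 10.6, 13.8 and 14.8 CPM in treated and 10.0, 9.01 and 8.66 CPM in control hearts (log2 0.48 ± 0.25, edgeR adjusted p = 0.317). The groups of Sec23ip were apart by less than 1 CPM at their nearest points.

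The inner coat is made of Sec23, which activates GTP hydrolysis by Sar1, and Sec24, which binds cargo. Sec23a had 24.9, 18.9 and 28.7 CPM in treated and 19.6, 19.0 and 17.8 CPM in control hearts (log2 0.36 ± 0.20, edgeR adjusted p = 0.371). Its paralog Sec23b had 4.65, 2.36 and 3.11 CPM in treated and 5.02, 5.004 and 5.29 CPM in control hearts, without overlap (log2 -0.57 ± 0.38, edgeR adjusted p = 0.497). Sec23b rested on 6 to 14 counts per library. The 4 Sec24 genes differed by -0.21 ± 0.31 (Sec24b) to 0.06 ± 0.33 (Sec24a), and Sec16a by 0.11 ± 0.22. Sec16b and Sec31b, with 23 and 5 counts over all 6 libraries, were not tested.

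Sec22b, a SNARE that helps COPII and COPI vesicles to fuse, averaged 25.6 ± 4.54 CPM in treated and 25.1 ± 2.78 in control hearts (SD, n = 3 each; log2 0.02 ± 0.19). Its relatives were scarcer and lay apart in opposite directions. Sec22a had 5.98, 5.50 and 5.05 CPM in treated and 9.12, 9.01 and 6.74 CPM in control hearts, without overlap (log2 -0.58 ± 0.30, edgeR adjusted p = 0.325). Sec22c, too low for the test, had 10, 8 and 16 counts in treated and 3, 4 and 6 in control hearts, also without overlap (log2 1.00 ± 0.50 in an unfiltered fit, edgeR adjusted p = 0.328).

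The p24 family was the role with the most members at an unadjusted p of 0.05, namely 2 of its 7 tested genes, and 0 passed after adjustment by edgeR. Both, Tmed4 and Tmed9, were higher and belong to its alpha subfamily. At that unadjusted p, 9.33% of all tested genes were higher and 8.78% lower. Of the 44 tested members 9.09% were higher, near that background. The roles were ranked on these same results and no test was made of the ranking, so it does not set the p24 family apart. Tmed4 (ENSMUSG00000004394) had 52.8, 60.1 and 62.1 CPM in treated and 40.1, 51.5 and 37.5 CPM in control hearts, so the groups were separate but control 2 lay near the lowest treated heart. Its log2 difference was 0.44 ± 0.15 (95% interval 0.13 to 0.74, unadjusted p = 0.00682, edgeR adjusted p = 0.0847), and without control 2 it passed (log2 0.57, edgeR adjusted p = 0.0357). Tmed9 (ENSMUSG00000058569) had 77.7, 77.4 and 90.9 CPM in treated and 73.0, 63.04 and 60.6 CPM in control hearts, without overlap (log2 0.32 ± 0.13, unadjusted p = 0.0200, edgeR adjusted p = 0.167).

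The beta and delta p24 genes showed less. Tmed2 averaged 52.4 ± 3.79 CPM in treated and 51.4 ± 6.25 in control hearts and Tmed10 averaged 58.1 ± 4.03 in treated and 51.6 ± 5.68 in control hearts (SD, n = 3 each), with log2 differences of 0.03 ± 0.14 and 0.17 ± 0.13. The gamma genes Tmed1, Tmed3 and Tmed5 differed by -0.21 ± 0.24, 0.14 ± 0.28 and 0.30 ± 0.24. Tmed7 and Tmed8 had 16 and 37 counts over all libraries and were not tested. Tmed6 and Tmed11 had 0 counts, which allows a level of up to 0.208 CPM over the 6 libraries, by counting error only.

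KDEL receptors return ER chaperones that carry a KDEL-like tail from the Golgi. Kdelr1 dominated, with 101, 104 and 108 CPM in treated and 93.5, 109 and 88.1 CPM in control hearts (log2 0.11 ± 0.12, edgeR adjusted p = 0.707). Kdelr2 had 20.6, 21.2 and 25.6 CPM in treated and 16.4, 19.0 and 17.8 CPM in control hearts, without overlap (log2 0.34 ± 0.19, edgeR adjusted p = 0.395). Kdelr3 had 16, 12 and 18 counts in treated and 6, 2 and 12 in control hearts. Its groups overlapped, and its difference was the largest of the 44 and had the largest SE (log2 0.82 ± 0.44, 95% interval -0.10 to 1.74, edgeR adjusted p = 0.356). Without control 2 the log2 difference was 0.41, below those of Sec63 and Tmed4 in the same fit, and without control 3 it was 1.54. It overlaps Ddx17 on the opposite strand, and whether counting used strand is not given in the sources used here.

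The COPI coat, a complex that carries cargo back to the ER and between Golgi cisternae, had the role median closest to 0 on TMM. All 8 of its genes on the list were tested and 0 were called, with 0 at an unadjusted p of 0.05 by edgeR, and their median was -0.04. Copa, the alpha subunit, had 72.8, 62.5 and 72.6 CPM in treated and 74.4, 78.6 and 74.1 CPM in control hearts. The treated values all lay below the controls, by a small amount (log2 -0.13 ± 0.12, edgeR adjusted p = 0.666). Copb1 and Copb2, the beta subunits, differed by -0.14 ± 0.19 and -0.05 ± 0.15 and the epsilon subunit Cope by -0.02 ± 0.15. Copz1, a zeta subunit, had 22.6, 25.2 and 25.2 CPM in treated and 22.4, 20.5 and 17.8 CPM in control hearts (log2 0.26 ± 0.18). Copg1, Copg2 and Copz2 differed by 0.05 ± 0.21, 0.07 ± 0.25 and -0.05 ± 0.24. With total counts alone 11 of the 13 members with a negative difference turned positive, 0 of them called: Copa, Copb1, Copb2, Cope, Copz2, Sec61g, Ssr1, Ssr2, Sec11c, Sec24b and Tmed1. Sec23b and Sec22a stayed negative, and all 13 stayed below the median of all genes. For 7 of the 8 COPI genes the 95% interval lay within 1.5-fold either way, as it did for 23 of the 44 members and 2978 of all 8531 tested genes.

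Summed by role, COPI gave 240, 225 and 229 CPM in treated and 243, 241 and 229 CPM in control hearts. The p24 genes gave 287, 287 and 315 CPM in treated and 255, 277 and 233 CPM in control hearts, and COPII gave 160, 162 and 180 CPM in treated and 141, 159 and 140 CPM in control hearts. The groups did not overlap for the p24 and COPII sums and did for the sums of the other 6 roles. Levels of 22.7% of single tested genes did not overlap either. For COPII the nearest values were 160 CPM in treated and 159 CPM in control hearts. A sum is led by its most abundant genes, and no test was made of it.

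The share of a paralog within its family does not depend on library scaling. Of 14 such shares, 5 (35.7%) had groups that did not overlap, each with an exact permutation p of 0.1, two-sided, the lowest value open to groups of 3 (0.28 after Benjamini-Hochberg adjustment over the 14). Levels of 22.7% of all tested genes did not overlap, and shares within a family are not independent of each other. The shares apart were those of Sec23a, Sec61a1, Sec11a, Copz1 and Kdelr2. In a family of 2 genes the share of the other gene is the complement, so the direction depends on which gene is listed. Sec23a made up 84.3%, 88.9% and 90.2% of Sec23 counts in treated and 79.6%, 79.2% and 77.1% in control hearts. Their 95% exact (Clopper-Pearson) intervals overlap, from 75.0 to 91.1%, 77.4 to 95.8% and 81.7 to 95.7% in treated and from 66.5 to 89.4%, 65.0 to 89.5% and 62.7 to 88.0% in control hearts.

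The other separate shares were smaller steps. Sec11a took 61.5% ± 2.02 of the catalytic signal peptidase counts in treated and 56.5% ± 2.50 in control hearts, and Copz1 took 69.6% ± 1.08 of the zeta subunit counts in treated and 64.6% ± 4.39 in control hearts (SD, n = 3 each). Kdelr2 took 16.9% ± 1.16 of KDEL receptor counts in treated and 15.1% ± 0.740 in control hearts. Within Sec24, by contrast, the shares overlapped widely: Sec24c took 54.0% ± 4.07 in treated and 51.8% ± 12.96 in control hearts. Copg1 stayed at 60.95% ± 7.45 of the gamma subunit counts in treated and 61.3% ± 0.983 in control hearts.

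**Figure D3:**
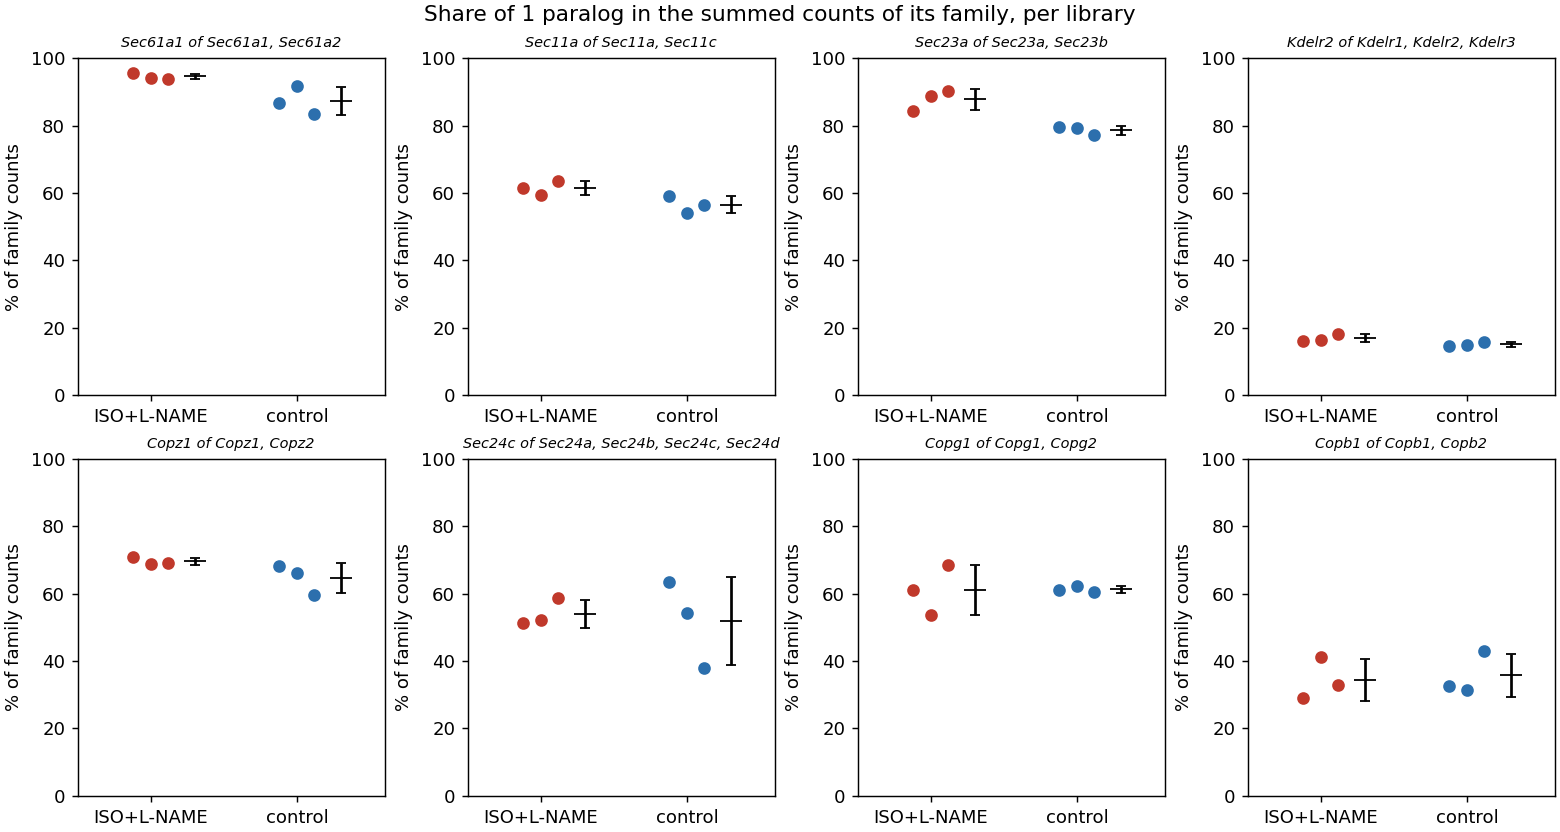
Share of 1 paralog in the summed counts of its family, in percent, in the 3 ISO+L-NAME and the 3 control libraries (points), with mean and SD beside them (bars). The groups are apart for Sec61a1, Sec11a, Sec23a, Kdelr2 and Copz1 and overlap for Sec24c, Copg1 and Copb1.

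The genes that surround these steps were followed in 8 lists of 115 genes, of which 109 were tested. Of these, 86 tested genes serve signal recognition, glycan transfer, membrane insertion, COPII and COPI regulation and vesicle tethering. Of the 86, 0 were called higher and 1 lower, against 3.41% and 2.68% of all genes, with a median of 0.03. At an unadjusted edgeR p of 0.05, 5 were higher and 6 lower, against 9.33% and 8.78% of all genes. The one called lower was Magt1, an accessory subunit of the oligosaccharyltransferase and a magnesium transporter. It had 177, 151 and 151 counts in treated and 183, 167 and 168 in control hearts. On TMM it averaged 58.9 ± 0.383 CPM in treated and 82.6 ± 1.54 in control hearts (SD, n = 3 each). Its log2 difference was -0.49 ± 0.12 (edgeR adjusted p = 0.0136). This call was made on TMM, and with total counts alone the median of all genes lay 0.30 higher. The result of Magt1 on total counts is not given here. Arcn1, the delta COPI subunit that the naming rule leaves out, differed by 0.28 ± 0.22, and the COPII GTPase gene Sar1a by 0.00 ± 0.12. None of the 3 tested Creb3 family genes, regulators of secretory capacity, was called.

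Folding of the entering chain depends on chaperones behind the channel. Of 20 tested ER folding genes and their regulators, 4 were called lower and 1 higher, against 2.68% and 3.41% of all tested genes. At an unadjusted edgeR p of 0.05, 6 were lower and 4 higher, against 8.78% and 9.33% of all genes. The higher ones besides Atf6 were Herpud1, Dnajc3 and Atf4 (log2 0.42 ± 0.13, 0.39 ± 0.14 and 0.35 ± 0.14), which did not pass after adjustment. On TMM, the lumenal chaperones Calr and Hspa5 were lower by 0.52 ± 0.12 and 0.37 ± 0.10 on the log2 scale (edgeR adjusted p = 0.00752 and 0.0291). Manf and the stress regulator Xbp1 were lower by 0.84 ± 0.20 and 0.62 ± 0.18 (edgeR adjusted p = 0.0136 and 0.0372). Atf6, another regulator, was higher by 0.57 ± 0.15 (edgeR adjusted p = 0.0287). With total counts alone the median of all genes lay 0.30 higher, and 0.844% of all genes were called lower. Hspa5 had 1394, 1060 and 1057 counts in treated and 1193, 1079 and 1204 in control hearts. Results of these genes on total counts are not given here.

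Secreted matrix proteins are cargo of this route. Of 14 secreted matrix genes, 9 were called higher and 0 lower, against 3.41% and 2.68% of all tested genes. Their median log2 difference was 1.08, against 0.09 for the machinery. This list was chosen with earlier results of these data known, so its median may partly reflect that choice. For every 100 counts of machinery genes there were 107, 72.0 and 80.9 counts of these matrix genes in treated and 47.6, 36.0 and 64.2 in control hearts, a ratio that no library scaling alters. The groups did not overlap.

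**Figure D4:**
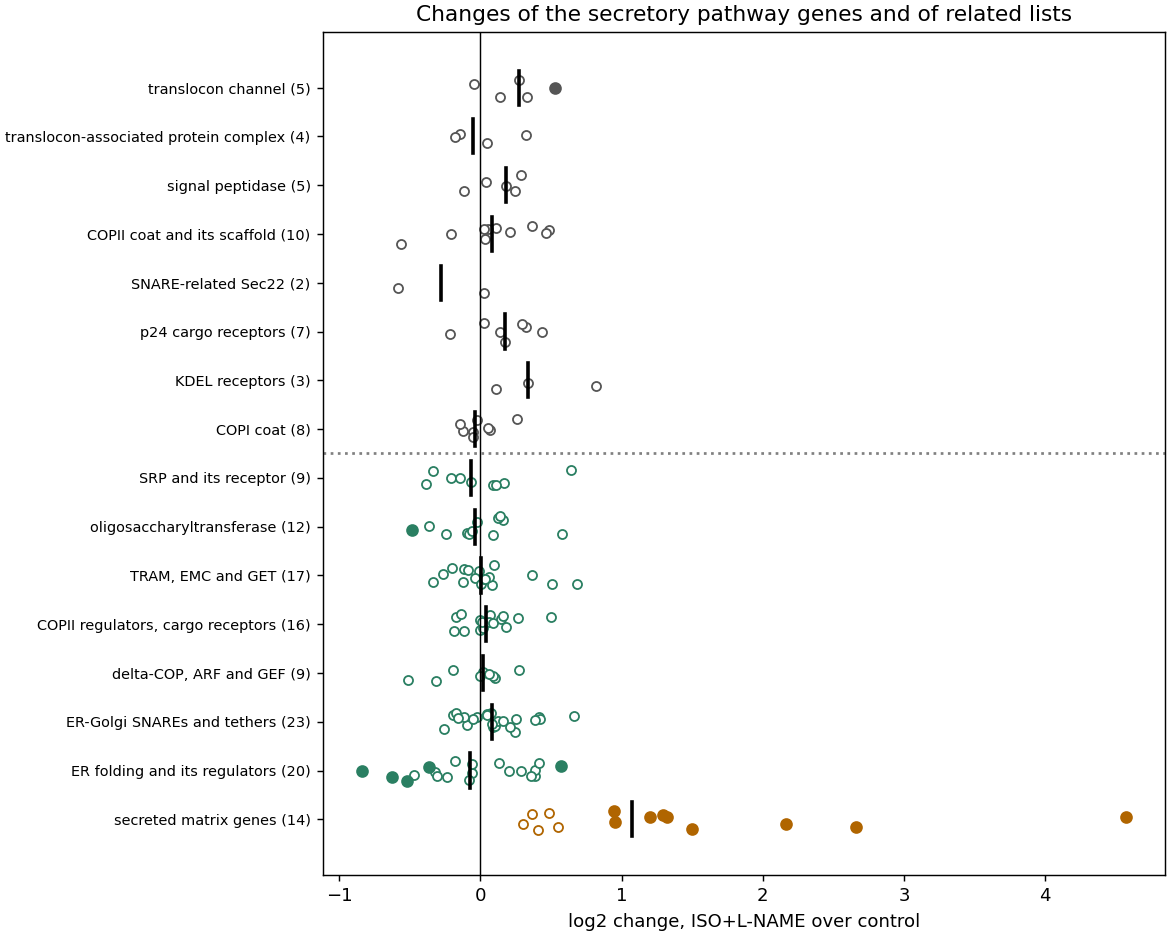
Log2 change of ISO+L-NAME over control for tested genes (points, filled where the adjusted p was at most 0.05). Above the dotted line are 8 roles of secretory machinery, and below it 8 lists. These are the related lists without the Creb3 family, and the secreted matrix genes. The number of genes is in brackets and the black stroke is the median. Machinery medians lie between -0.28 and 0.34, against 1.08 for the matrix genes.

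Markers of other cell types differed between the groups to unlike degrees, most for macrophages. Over all tested genes, 3.41% were called higher and 2.68% lower. Of 12 tested macrophage markers 8 were called higher and 0 lower, with summed levels of 403 to 483 CPM in treated and 179 to 238 CPM in control hearts. Of 10 tested fibroblast markers 3 were called higher and 0 lower, with 1098 to 1296 CPM in treated and 793 to 1095 CPM in control hearts. Of 12 tested cardiomyocyte markers 2 were called higher and 4 lower. Of 11 endothelial and 9 mural markers, 0 and 1 were called higher and 1 of each lower, with medians of -0.12 and -0.11. Plasma and B cell markers were at or near 0 in both groups, at 2.7 to 4.0 summed CPM in treated and 2.7 to 5.0 CPM in control hearts, with Igkc and Ighm at 0 in every library. The part of cell makeup in the differences of Sec63 and the other members was not tested, and in bulk tissue a change in the number of cells cannot be told apart from a change of message per cell.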

How the data were processed

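RNA of 6 mouse heart samples was sequenced. Per the labels' protocols, total RNA came from Trizol extraction and the kit was Lexogen's QuantSeq, which reads forward into message ends. The submitters' processing notes name bcl2fastq and GRCm39; for the aligner, the counter, the annotation release, strandedness and any molecular identifiers: not given in the sources used here. The deposited table holds whole-number counts for each gene in each library, used here as given. Beside them the deposited table has a scaled signal, headed CPM, that is the count times 1 constant per library; its constants served as 1 alternative scaling.

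Genes passed filterByExpr (minimum count 10, minimum total 15), were scaled by TMM and went through the quasi-likelihood test of edgeR 4.0.16 under R 4.3.3 (glmQLFit and glmQLFTest, group the only factor), with Benjamini-Hochberg adjustment over all 8531 genes and a threshold of 0.05. Standard errors are the absolute log2 difference over the square root of F, and 95% intervals use the t distribution at the test's degrees of freedom. The common coefficient of variation between replicates was 10.8%. Each group is 3 mice by the series' design text, 1 library each. Pairs within a group differed by 2.22 to 3.85 chi-square per degree of freedom, more than sampling noise. Paralog shares needed 30 counts per family and library and were set against each other by two-sided exact permutation. Intervals of shares and the limit set by a count of 0 (3 counts) cover counting error only.

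Members follow a rule on names. Members, gene lists and tests were chosen with earlier results of these data known. Members chosen to be named were those at an unadjusted p of 0.05, then the most abundant member and the largest difference of each sign in each role. Other members are named too, and how fully values are given varies among all of them. Alternatives were RLE scaling, total counts, mitochondrial messages left out, the count filter removed, a 5 CPM floor on the mean, DESeq2 1.42.0, limma-voom (limma 3.58.1), a block for replicate number, and leaving out 1 library at a time; scaling by the deposited constants was chosen later, after seeing the data. On counts simulated for this comparison with 8531 genes, the share of true changes called was 29.9% at 1.5-fold, 67.2% at 2-fold and 92.4% at 4-fold, and 0 had the sign turned. The changed genes were drawn from all tested genes, and every gene was given the same common coefficient of variation. Promoter windows came from RefSeq on GRCm38.p6 and were matched by symbol. A further promoter sequence is not reported here. Copa, Copg2, Kdelr1, Kdelr3, Sec11a, Spcs1, Spcs3, Tmed1 and Tmed5 overlap another listed gene and are less certain for it.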

Additional observations from a re-analysis of the deposited data

How the results depend on the processing

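With total counts alone 15 members were called higher and their median log2 difference was 0.39, and 11 of the 13 negative differences turned positive without a call, among them those of Sec61g (0.26), Ssr1 (0.12), Sec11c (0.19), Tmed1 (0.093), Copa (0.18) and Copb1 (0.16). DESeq2 called 0 members higher (3 at an unadjusted p of 0.05). With 1 library left out, 0 to 1 members were called higher: Sec63 without control 1, Tmed4 without control 2 and 0 without any other library (2 to 5 higher at an unadjusted p of 0.05 by edgeR); the cause was not tested. No member was called lower under any alternative run. Over the fits without 1 library the median log2 difference of members ran from 0.08 to 0.15, the number of paralog shares without overlap from 5 to 7, and the summed share of members differed by 0.0365 to 0.0445 percentage points. Of the 20 members whose values were followed through these fits, the sign turned in some for 3: Sec61g ran from -0.15 to 0.017, Sec22b from -0.11 to 0.13 and Spcs1 from -0.15 to 0.25. Kdelr3 ran from 0.41 to 1.54. Of the values of named members under alternatives, 272 kept their sign and side of the threshold, 12 turned sign, 8 gained a call and 6 lost one. Genes called ran from 301 without control 1 to 1479 with total counts, against 520. Same-numbered libraries did not deviate together (correlations -0.03, -0.01 and 0.06), so the replicate number was not read as a pairing; with it as a block, 1 member was called higher, 0 lower, and the median was 0.09. Depth limits the scarce paralogs: Sec23b had 6 to 14 counts per library and Kdelr3 2 to 18.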
